A study of Mus musculus with 10 samples.

Results

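The Dishevelled genes *Dvl1*, *Dvl2* and *Dvl3* and 7 genes of the core of the canonical Wnt pathway (*Ctnnb1*, *Axin1*, *Axin2*, *Gsk3b*, *Apc*, *Lrp5* and *Lrp6*) were described in RNA-seq counts of tagged hippocampal cells. The 10 genes were taken by symbol from the 53379 genes counted in each of 10 libraries. The list started from *Dvl3*, which was chosen by its expression values, as the study had placed it among the genes lower in aversive vCA1 cells than in the neutral group. The values of the 10 genes in that contrast are therefore given as a description, with no test.

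In the canonical Wnt pathway a secreted Wnt protein binds a Frizzled receptor and the coreceptor LRP5 or LRP6, and Dishevelled proteins at the membrane then recruit Axin. Without this signal, a destruction complex of Axin, APC, casein kinase 1 and GSK3 marks β-catenin, the product of *Ctnnb1*, for degradation. With it, β-catenin accumulates and acts with TCF and LEF factors in the nucleus. In neurons, Wnt signals and Dishevelled are also known for roles in dendrite growth and in the formation of synapses.

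The mice were males, 5 weeks old, with a ChR2-YFP label. The study delivered it by virus, AAV9-TRE-ChR2-EYFP being driven by tTA from AAV9-c-Fos-tTA, so that the *c-Fos* promoter decided which cells became tagged while doxycycline was withheld. Mice of the aversive group received 4 foot shocks of 2 s and 1.5 mA, appetitive mice spent, by the labels, 1 h with a female in a clean cage (the study's methods give a longer time), and those of the neutral group visited the conditioning cage with neither stimulus. Mock mice stayed in the home cage and were untagged by the study's methods. There were 2 aversive, 2 appetitive, 3 neutral and 3 mock libraries. By the labels 8 mice were pooled for each condition, and no source says whether the libraries within a group are from separate pools, so p-values measure the spread between libraries, which may be technical. The study's methods name fewer mock mice than there are mock libraries, so some mock libraries would share animals, and an n of 3 for mock counts libraries and not mice. Hippocampal regions were dissected and dissociated, and EYFP-positive material was sorted; the study calls it nuclei in its results and cells in its methods.

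Total counts ranged from 16968588 to 49880042 in mock, aversive and appetitive libraries and from 60077131 to 67650693 in neutral ones. Neutral libraries were made with another version of the kit and sequenced on another sequencer as pairs of 100 bp. All others were single reads of 40 bp. Library preparation, sequencing and the neutral condition therefore cannot be told apart. Levels are CPM values, read counts relative to the library total as normalized by TMM, and a floor of 3 counts was worth between 0.0346 and 0.235 CPM. Replicates of the tagged groups differed from each other. The rank correlation across genes, which are not independent, was 0.606 between the appetitive and 0.637 between the aversive libraries. It was 0.766 to 0.864 between neutral and 0.91 to 0.922 between mock libraries. The 10 neuronal markers held 0.00801% to 0.0688% of the counts of a library, and 2 of them had no count in either appetitive library. The 8 oligodendrocyte markers held 3.21% to 38.5% of the counts in mock, aversive and appetitive libraries and 0.924% to 4.54% in neutral ones, and the 6 choroid plexus markers 2.72% to 13.8% in neutral libraries and at most 1.01% elsewhere. The part of cell type composition in the results was not tested. In such bulk samples, fewer cells of a type and less RNA per cell cannot be told apart.

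Because reads of 40 bases had to be assigned to 3 related Dishevelled genes, their coding sequences were compared first. The windows of 40 bases in which each pair was most alike are shown, from GENCODE M21 transcripts (GRCm38), 5′ to 3′, with positions counted from the A of the start codon and with bases that differ within the pair in capitals. *Dvl1* (positions 922 to 961) and *Dvl2* (970 to 1009) differed at 3 bases.
Dvl1: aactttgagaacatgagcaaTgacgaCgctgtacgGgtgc
Dvl2: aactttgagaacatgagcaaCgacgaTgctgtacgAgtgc
*Dvl1* (709 to 748) and *Dvl3* (703 to 742) also differed at 3 bases.
Dvl1: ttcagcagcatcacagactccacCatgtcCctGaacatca
Dvl3: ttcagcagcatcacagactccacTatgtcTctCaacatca
*Dvl2* (187 to 226) and *Dvl3* (154 to 193) differed at 2 bases.
Dvl2: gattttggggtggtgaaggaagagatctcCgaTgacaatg
Dvl3: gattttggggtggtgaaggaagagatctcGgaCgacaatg
The longest run of identical bases was 21 between *Dvl1* and *Dvl2* and 29 in both other pairs. No word of 40 bases in the transcripts of any of the 10 genes was found in another of the 10, whereas some were found in genes outside them. *Dvl2* shared 944 of its 6334 words (14.9%), 857 of them with *Acadvl*, which overlaps it on the other strand, and *Ctnnb1* shared 684 of 5373 (12.7%) with *Ulk4* on the other strand. Counting ignored strand, so reads from these stretches could not be told apart. *Dvl3* shared 128 of 6135 words (2.09%) and *Dvl1* none of 5358, though its exons overlap *Tas1r3* on the other strand.

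*Dvl3* (chromosome 16, 20516982 to 20534010, + strand, GRCm38) was near the floor in aversive libraries and well above it in the other groups. Mock libraries had 358, 99 and 1291 counts (14.3, 5.16 and 17.8 CPM), aversive libraries 2 and 7 counts (0.1 and 0.14 CPM), appetitive libraries 113 and 142 counts (8.84 and 7.44 CPM), and neutral libraries 2502, 3005 and 2717 counts (39.5, 34.7 and 34.9 CPM). Both aversive libraries lay below every other library, and all neutral libraries lay above every other. With counts pooled within groups, the aversive level was lower than the neutral level by 280.3-fold, lower than mock by 116.3-fold (exact 95% interval 61.1 to 254.8) and lower than appetitive by 62.1-fold (32.2 to 137.4). These intervals cover counting error only, and amplified reads are not independent molecules.

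*Dvl3* was not alone in this pattern. By a rule chosen after its values were seen, 7374 genes had at least 5 CPM in every mock and neutral library, among them 8 of the 10 genes. Of these 7374 genes, 199 (2.7%) were under 1 CPM in both aversive libraries, *Dvl3* among them, and 925 (12.5%) were under 1 CPM in both appetitive libraries, with none of the 10 genes among them.

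*Dvl1* (chromosome 4, 155847402 to 155859303, + strand) had, per exon length, the highest neutral level of the Dishevelled genes. It was at 45.4, 57.7 and 11.2 CPM in mock, 2.3 and 10.4 CPM in aversive, 0.0782 and 12.8 CPM in appetitive and 247.0, 79.5 and 131.9 CPM in neutral libraries. Every neutral library lay above every library of the other groups, while the appetitive pair spanned 164.1-fold and its lower library held 1 count.

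*Dvl2* (chromosome 11, 70000595 to 70012301, + strand) was at 6.85, 6.93 and 13.7 CPM in mock, 11.6 and 14.7 CPM in aversive, 0.0782 and 81.9 CPM in appetitive and 19.4, 40.4 and 21.4 CPM in neutral libraries. The appetitive libraries held both the lowest and the highest *Dvl2* level of all 10, so the spread in that group covered every other group.

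**Figure D1:**
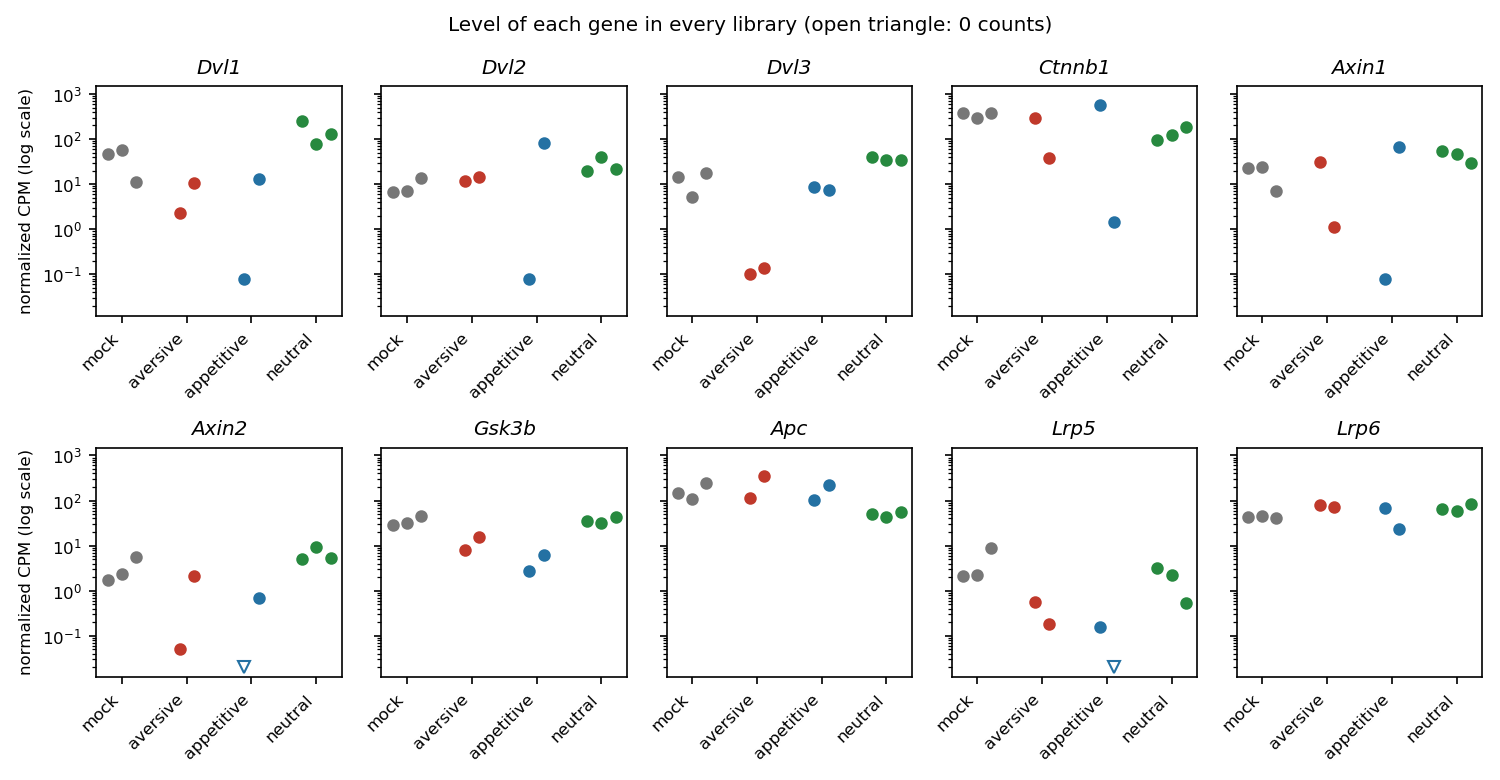
Normalized CPM of each of the 10 genes (log axis) in every library, with 1 point per library, coloured by group, and an open triangle for a library with 0 counts. For *Dvl3* the aversive points sit at 0.1 and 0.14 CPM, below all others, whereas for *Dvl2* and *Ctnnb1* the appetitive points lie at both ends of the range.

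The make-up of the Dishevelled transcripts was compared per exon length, as the share of each gene in the summed CPM per kb of the 3. *Dvl1* held 31.0% to 85.8% of this sum in mock and 57.4% to 84.3% in neutral libraries. In aversive libraries *Dvl2* held the largest share, at 79.4% and 52.6%, and *Dvl3* 0.675% and 0.493%, against 5.98% to 38.7% in mock. The appetitive libraries had no common make-up. *Dvl3* held 98.0% in replicate 1 and *Dvl2* 77.7% in replicate 2. The summed level was 2.31 and 4.44 CPM per kb in aversive libraries, 1.41 and 16.7 in appetitive, 7.19 to 13.4 in mock and 27.7 to 58.7 in neutral ones.

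**Figure D2:**
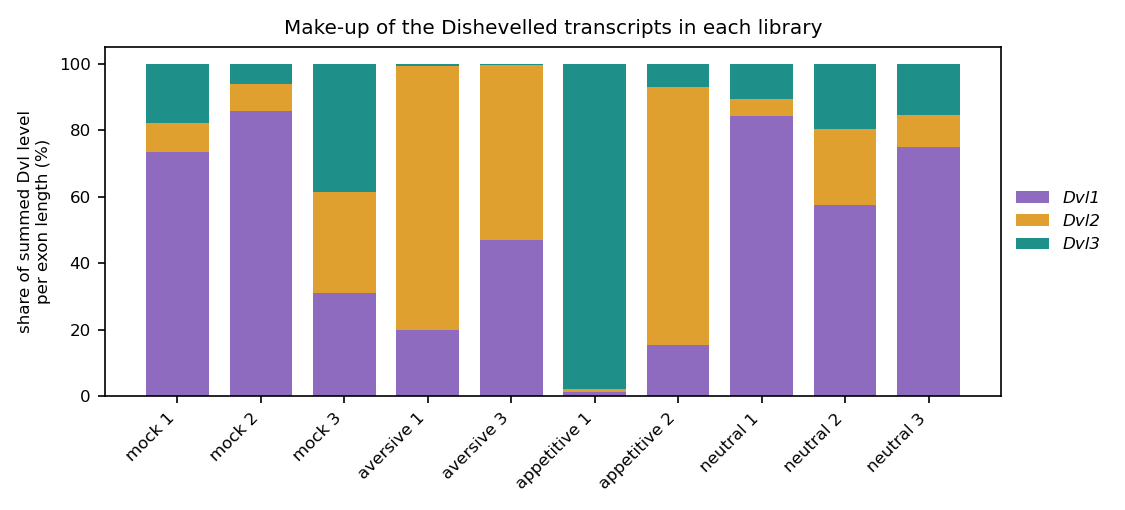
Share of *Dvl1*, *Dvl2* and *Dvl3* in the summed Dishevelled level per exon length (%), with 1 stacked bar per library. The *Dvl3* share is under 1% in both aversive libraries, and the appetitive libraries differ, with *Dvl3* at 98.0% in replicate 1 and 6.93% in replicate 2.

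None of the Dishevelled genes passed an adjusted p of 0.05 in edgeR's quasi-likelihood test, with Benjamini-Hochberg adjustment over all 19754 tested genes. For *Dvl3*, the log2 fold change of appetitive over aversive was 6.03 (SE 1.43, adjusted p = 0.0629, range over the alternatives 2.34e-08 to 0.739), and that of aversive over mock was -6.64 (SE 1.45, adjusted p = 0.465, range 1.68e-09 to 0.783). Both use the aversive libraries from which the study picked the gene, so neither is independent evidence. DESeq2 called *Dvl3* in both (log2 fold changes 6.2 and -6.51), where it called 23.8% and 8.18% of all genes it tested. Leaving out either aversive library left the log2 fold change of appetitive over aversive at 5.72 and 6.3. Leaving out either appetitive library, so that 1 was left in that group, gave 5.76 and 6.02. Appetitive over mock, which uses no library of the contrast that picked the gene, gave -0.61 (SE 1.06, adjusted p = 0.734).

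*Dvl1* gave a log2 fold change of -4.56 for appetitive over neutral (SE 1.74, adjusted p = 0.118 in edgeR, range over the alternatives 0.0173 to 0.215) and of 2.01 for neutral over mock (SE 1.31, adjusted p = 0.608). *Dvl2* gave 2.16 for appetitive over mock (SE 1.6, adjusted p = 0.395 in edgeR), and without appetitive replicate 2 this became -7.01, so that 1 library decided its sign. In the contrast that picked *Dvl3*, the log2 fold changes of aversive over neutral were -4.59 for *Dvl1*, -1.04 for *Dvl2* and -8.19 for *Dvl3*.

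*Ctnnb1* (chromosome 9, 120929216 to 120960507, + strand), which encodes β-catenin, had 383.6, 297.5 and 379.9 CPM in mock, 299.9 and 38.8 CPM in aversive, 577.9 and 1.41 CPM in appetitive and 96.8, 124.7 and 182.9 CPM in neutral libraries. Neutral libraries all lay below mock, and both tagged groups with a stimulus had 1 library within or above the mock range and 1 far below it. The appetitive pair differed by 7.91 on the scale of log2(CPM + 1), more than for any other of the 10 genes. The log2 fold change of appetitive over mock was -0.29 (SE 1.44, adjusted p = 0.916 in edgeR). It was -8.18 without appetitive replicate 1 and 0.51 without appetitive replicate 2, each with 1 appetitive library left.

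*Axin1* (chromosome 17, 26138688 to 26195811, + strand), the scaffold of the destruction complex, had a similar spread. It was at 22.8, 24.1 and 7.21 CPM in mock, 30.5 and 1.14 CPM in aversive, 0.0782 and 67.0 CPM in appetitive and 55.4, 47.3 and 29.6 CPM in neutral libraries. All neutral libraries lay above mock, and the appetitive pair spanned the range of both. *Axin2* (chromosome 11, 108920349 to 108950783, + strand) is another scaffold and a well-known target of β-catenin. It had 1.71, 2.4 and 5.71 CPM in mock, 0.05 and 2.1 CPM in aversive, 0 and 0.681 CPM in appetitive and 5.1, 9.34 and 5.4 CPM in neutral libraries. Both appetitive libraries were below every mock and neutral library, and 1 aversive library held 1 count. Appetitive over neutral gave a log2 fold change of -4.25 for *Axin2* (SE 2.32, adjusted p = 0.233 in edgeR).

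*Gsk3b* (chromosome 16, 38089001 to 38246084, + strand), a kinase that phosphorylates β-catenin, lay lower in aversive and appetitive than in mock and neutral libraries. It had 28.9, 31.9 and 45.3 CPM in mock, 35.3, 31.9 and 42.3 CPM in neutral, 8.11 and 15.7 CPM in aversive and 2.74 and 6.18 CPM in appetitive libraries. The groups with a stimulus did not overlap mock or neutral, and appetitive lay below aversive. The log2 fold change was -2.99 for appetitive over mock (SE 1.07, adjusted p = 0.147 in edgeR, range over the alternatives 0.000957 to 0.389) and -3.03 for appetitive over neutral (SE 1.08, adjusted p = 0.0997, range 0.000644 to 0.3). It was -1.57 for aversive over mock (SE 0.998, adjusted p = 0.586) and -1.41 for appetitive over aversive (SE 1.06, adjusted p = 0.52). DESeq2 called *Gsk3b* in both appetitive comparisons with mock and neutral. *Gsk3a*, its paralog, gave 0.62 for appetitive over mock (SE 1.12, adjusted p = 0.748 in edgeR), with 58.3 and 4.71 CPM in appetitive and 16.7 to 23.6 CPM in mock libraries.

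*Apc*, whose product binds Axin and β-catenin, had 143.7, 105.5 and 247.5 CPM in mock, 115.1 and 352.4 CPM in aversive, 100.2 and 217.9 CPM in appetitive and 49.9, 42.1 and 54.3 CPM in neutral libraries. Every neutral library lay below every library of the other groups. The log2 fold change was 1.7 for appetitive over neutral (SE 0.711, adjusted p = 0.144 in edgeR) and -1.76 for neutral over mock (SE 0.662, adjusted p = 0.258). Kit version, sequencer and sequenced read length differ together with the neutral condition in both comparisons. All reads were cut to 40 bp before alignment. Appetitive over mock, with the same kit in both groups, gave -0.06 on the log2 scale (SE 0.72, edgeR adjusted p = 0.969). The parts of kit, sequencer, read length and neutral condition in the *Apc* values cannot be told apart and were not tested. *Apc2* was also lower in the neutral group than in mock, from 0 to 4.1 CPM against 7.5 to 34.8 CPM, but 1 appetitive library was at 0 CPM too. *Amer1*, whose product binds APC, was higher in the neutral group than in mock, from 19.4 to 112.3 CPM in the neutral group against 6.2 to 10.1 CPM in mock.

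Of the coreceptors, *Lrp6* (chromosome 6, 134446476 to 134566965, - strand) was at 42.9, 45.1 and 40.3 CPM in mock, 78.3 and 72.6 CPM in aversive, 68.7 and 23.4 CPM in appetitive and 66.2, 59.2 and 83.5 CPM in neutral libraries. Aversive and neutral libraries lay above mock, with a log2 fold change of 0.82 for aversive over mock (SE 0.754, adjusted p = 0.729 in edgeR). *Lrp5* (chromosome 19, 3584828 to 3686564, - strand) was low throughout. It had 2.15, 2.24 and 8.76 CPM in mock, 0.55 and 0.18 CPM in aversive, 0.156 and 0 CPM in appetitive and 3.22, 2.21 and 0.527 CPM in neutral libraries. The 2 counts of *Lrp5* in both appetitive libraries together were 99.9-fold fewer per normalized library than in mock (exact 95% interval 27.5 to 826.2) and 30.5-fold fewer than in neutral (8.39 to 252.7), by counting error only. Its adjusted p in edgeR was 0.184 for appetitive with mock (range over the alternatives 0.00315 to 0.392) and 0.196 for appetitive with neutral, and its fitted fold changes in appetitive comparisons depend on the prior count.

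Levels were compared between genes as CPM per kb of exon. In mock, *Ctnnb1* was the highest at 68.1 ± 9.37 (SD, n = 3), above *Apc* at 10.3 ± 4.56, and *Lrp5* the lowest at 0.45 ± 0.389. From *Apc* to *Lrp6* at 3.13 ± 0.176, neighbours in this order (*Apc*, *Dvl1*, *Axin1*, *Gsk3b*, *Lrp6*) overlapped between libraries, as did *Dvl3* with *Dvl2* and *Axin2* with *Lrp5*. In the neutral group *Dvl1* at 30.6 ± 17.1 (SD, n = 3) and *Ctnnb1* at 26.0 ± 8.46 overlapped and led, followed by *Axin1* at 11.5 ± 3.44. In aversive libraries *Dvl3* was the lowest at 0.0187 ± 0.00443 (SD, n = 2), overlapping *Lrp5* at 0.0375 ± 0.0269. In appetitive libraries neighbours overlapped from *Ctnnb1* at 55.8 ± 78.5 (SD, n = 2) down to *Dvl3* at 1.27 ± 0.154, and *Gsk3b* at 0.454 ± 0.248 lay apart from both of its neighbours.

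Over the 10 genes, edgeR called 0 at an adjusted p under 0.05 in each of the 5 tested comparisons. For appetitive with mock, 1.98% of all tested genes were called, 2 of the 10 genes (*Gsk3b* and *Lrp5*) and 23.8% of all had an unadjusted p under 0.05, and DESeq2 called 2 (27.5% of all it tested). For appetitive with neutral, 6.17% of all were called, 3 of the 10 (*Gsk3b*, *Dvl1* and *Apc*) and 29.3% of all had an unadjusted p under 0.05, and DESeq2 called 4, namely *Dvl1*, *Axin2*, *Gsk3b* and *Lrp5* (28.7% of all it tested). For appetitive with aversive, 1.8% of all were called, 1 of the 10 (*Dvl3*) and 20% of all had an unadjusted p under 0.05, and DESeq2 called 1 (23.8% of all it tested). For aversive with mock, 0.0% of all were called, 1 of the 10 (*Dvl3*) and 9.96% of all had an unadjusted p under 0.05, and DESeq2 called 1 (8.18% of all it tested). For neutral with mock, 0.0861% of all were called, 1 of the 10 (*Apc*) and 13.5% of all were under an unadjusted 0.05, and DESeq2 called 0 of the 10 and 7.5% of all it tested. By unadjusted p, the 10 genes thus held about the share of all genes or less.

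Groups did not overlap for 3 of the 10 genes between appetitive and mock libraries (48.7% of all tested genes), 6 between appetitive and neutral (38.6%), 4 between appetitive and aversive (28.4%), 5 between aversive and mock (36.1%) and 7 between neutral and mock (32.0%). The 7 were *Dvl1*, *Dvl2*, *Dvl3*, *Axin1* and *Lrp6*, higher in neutral (16.0% of all tested genes), and *Ctnnb1* and *Apc*, lower (15.9%). Between aversive and neutral libraries 6 of the 10 did not overlap (33.7% of all tested genes), a count from which nothing is read because this contrast chose the list. The median log2 fold change of the 10 genes was -0.45 for appetitive over mock (-1.45 for all tested genes), -1.38 for appetitive over neutral (-0.91), -0.27 for appetitive over aversive (-0.48), -1.32 for aversive over mock (-0.13) and 0.86 for neutral over mock (0.08). With genes at the floor in 1 group set at their bound, the medians of the 10 were the same and those of all genes were -0.38, -0.57, -0.3, -0.02 and 0.08. The comparisons share groups, so these values are not independent of each other.

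**Figure D3:**
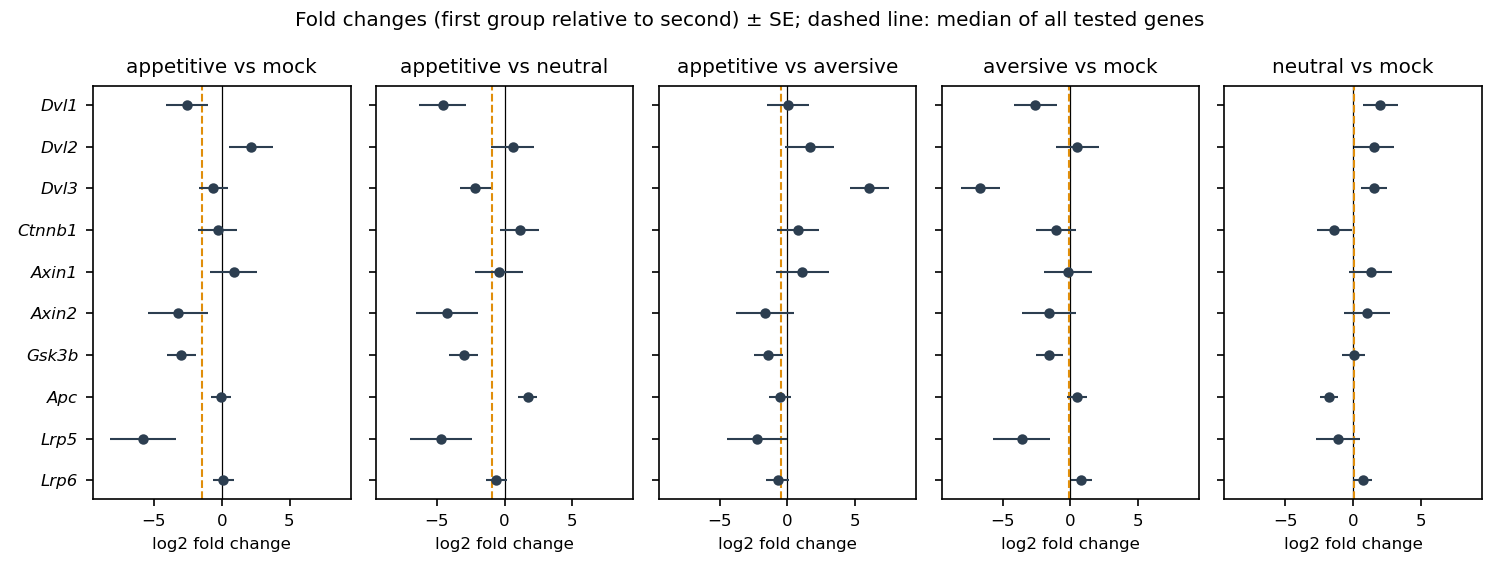
Log2 fold change of each gene (point) with its SE (bar) in the 5 tested comparisons, the group named first relative to the other, with the median of all tested genes as a dashed line. *Dvl3* stands at 6.03 for appetitive over aversive and -6.64 for aversive over mock, and *Lrp5* has the widest bar for appetitive over mock (SE 2.43).

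Libraries differed in how many of the 10 genes they held. Appetitive replicate 1 had at most 3 counts for 5 of the 10, aversive replicate 1 for 2, appetitive replicate 2 for 1 and all other libraries for 0. Among 12416 genes above 1 CPM in every mock library, a group that holds all 10, the share at 3 counts or fewer was 39.9%, 19.9% and 32.0% in these libraries. With 1 added to each CPM value, 4 of the 10 genes differed by more than 4-fold between the appetitive libraries, against 58.7% of 9893 genes. Those 9893 genes had a group mean of at least 1 CPM, which *Axin2* (0.34) and *Lrp5* (0.0782) did not reach. Between the aversive libraries 2 of the 10 differed so, against 47.3% of 13009 genes with such a mean. There *Dvl3* (0.12) and *Lrp5* (0.365) did not reach it. Without the added 1, the aversive pair also passed 4-fold for *Dvl1* (4.52-fold) and *Axin2* (42.0-fold).

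The genes whose pattern over the 10 libraries was most like that of *Dvl3*, by the root mean square difference of centred log2(CPM + 1), were *Mex3c* (0.62), *Traf3ip1* (0.666), *Dnajc4* (0.703), *Wiz* (0.763) and *Taf8* (0.788), where the median of all tested genes was 2.01. *Mex3c* had 0.0401 to 0.35 CPM in aversive, 4.3 to 4.85 CPM in appetitive, 14.7 to 18.4 CPM in mock and 23.6 to 33.4 CPM in neutral libraries. Among the 10 genes, *Axin2* was nearest to *Dvl3* at 1.36 and *Ctnnb1* farthest at 2.69, with *Dvl1* at 1.85 and *Dvl2* at 2.19.

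The rest of the pathway was followed in 135 genes in 9 lists by role, of which 117 were tested. edgeR called 2 of them for appetitive with mock, both lower (1.71%, against 1.98% of all tested genes). It called 8 for appetitive with neutral, 2 higher and 6 lower (6.84%, against 6.17%), and 3 for appetitive with aversive, all lower (2.56%, against 1.8%). For aversive with mock and for neutral with mock it called 0, with 13 and 18 of the 117 under an unadjusted p of 0.05, as were 9.96% and 13.5% of all tested genes. Beside the calls named below, ranges of the adjusted p are over all alternatives, and each of these calls was lost under at least 1 of them.

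*Fbxw11*, an F-box protein that takes phosphorylated β-catenin to degradation, was lower in appetitive libraries than in every other group. It had 7 and 4 counts in appetitive libraries (0.547 and 0.21 CPM), against 121.5 to 161.5 CPM in mock, 69.0 and 51.4 CPM in aversive and 62.1 to 120.8 CPM in neutral libraries. The log2 fold change was -8.57 over mock (SE 1.07, edgeR adjusted p = 0.0296, range over the alternatives 2.93e-18 to 0.107), -8.06 over neutral (SE 1.05, adjusted p = 0.00993, range 1.96e-17 to 0.0951) and -7.33 over aversive (SE 1.03, adjusted p = 0.024, range 5.23e-13 to 0.711). The study had listed it among genes lower in appetitive than in neutral cells, so these values are not independent evidence. Leaving out any mock library, or neutral replicate 1 or 3, left 0 of all tested genes called for appetitive with mock and with aversive, so each call named here in those comparisons was lost. *Fbxw11* was the 1 called gene of 20 in the list of the destruction complex and β-catenin turnover.

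Of 18 tested receptors, *Fzd6*, a Frizzled receptor, and *Ryk*, a Wnt receptor with a kinase-like domain, were called. *Fzd6* had 0 and 3 counts in appetitive libraries and was lower than in mock by 479.4-fold (exact 95% interval 164.0 to 2325.6, edgeR adjusted p = 0.0425, range 1.19e-07 to 0.131) and lower than in neutral by 672.6-fold (230.1 to 3261.9, adjusted p = 0.0239, range 6.53e-09 to 0.0951). *Ryk* had 1 count in each appetitive library and was lower than in neutral by 597.9-fold (165.5 to 4937.9, adjusted p = 0.0271 in edgeR, range 8.73e-07 to 0.0951) and lower than in aversive by 888.9-fold (245.9 to 7342.4, adjusted p = 0.0427, range 2.17e-06 to 0.711), where the aversive libraries were at 3.5 and 76.7 CPM. These intervals, too, cover counting error only. *Fzd6* against mock was not called in edgeR when DESeq2's size factors, or library sizes without TMM, set the scale.

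Of 12 tested secreted or membrane inhibitors, *Sfrp5* and *Kremen1* were called lower in appetitive than in neutral libraries (edgeR adjusted p = 0.0354, range 8.29e-07 to 0.103, and 0.0482, range 2.53e-07 to 0.14). *Kremen1* was not called with DESeq2's size factors in edgeR or without a filter on low counts. *Sfrp5*, which binds Wnt proteins, had 0 counts in both appetitive libraries and 15.5 to 59.7 CPM in neutral ones, where choroid plexus markers held 2.72% to 13.8% of counts. Aversive libraries had 0 and 0.701 CPM beside 1.01% and 0.899% of counts, and mock 1.98 to 5.26 CPM beside 0.0983% to 0.51%. The part of these markers in the *Sfrp5* result was not tested. *Kremen1*, a receptor for Dickkopf proteins, was at 0.156 and 0 CPM in appetitive, 0.35 and 0.2 CPM in aversive and 11.6 to 18.8 CPM in neutral libraries.

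*Bcl9l*, a coactivator of β-catenin, was the 1 called gene of 17 nuclear effectors. It had 0 and 1 counts in appetitive libraries, against 13.1 and 65.1 CPM in aversive (edgeR adjusted p = 0.0428, range 9.38e-07 to 0.711) and 10.2 to 19.6 CPM in neutral libraries (adjusted p = 0.0355, range 2.06e-05 to 0.106). Its call against aversive was lost when library sizes were used without TMM. Among the Wnt ligands, *Wnt7b* was at 21.9 to 82.6 CPM in mock and at 44.0 and 55.6 CPM in aversive libraries. *Wnt7b* was the 1 called gene of 9 tested Wnt ligands, higher in appetitive than in neutral libraries (edgeR adjusted p = 0.0318, range 6.49e-08 to 0.741), but its appetitive libraries were at 119.3 and 0 CPM and its neutral ones at 0 to 0.0231 CPM, and without appetitive replicate 1 its log2 fold change turned to -2.06. *Daam2*, a formin that binds Dishevelled, rose in appetitive over neutral libraries by 3.46 on the log2 scale (SE 0.913, edgeR adjusted p = 0.0494, range 0.00164 to 0.131), with 254.0 and 162.1 CPM against 10.8 to 29.4 CPM, and was the 1 called gene of 16 in the planar polarity list. It was not called when library sizes were used without TMM, nor among genes with at least 10 counts in every library, nor with only the compared groups in the fit. Oligodendrocyte markers held 38.5% and 9.37% of the counts in the appetitive libraries, in the same order, and 0.924% to 4.54% in the neutral libraries. The aversive libraries had the opposite order, with 30.2% and 3.21% of counts beside 37.8 and 214.4 CPM of *Daam2*. Mock libraries had 31.5%, 27.5% and 7.28% beside 102.1, 30.7 and 64.7 CPM. The part of these markers in the *Daam2* result was not tested. No gene was called among 15 Dishevelled partners, 12 usual target genes and 5 genes of ligand release and R-spondins, with 5, 5 and 0 under an unadjusted p of 0.05 in edgeR for appetitive with mock, as were 23.8% of all tested genes.

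With genes at the floor set at their bound, the median log2 fold change of appetitive over mock was -2.27 for Wnt ligands, -2.56 for receptors, -3.59 for extracellular inhibitors and -3.06 for usual target genes. It was -0.13 for Dishevelled partners, 0.43 for the destruction complex and turnover, -0.12 for nuclear effectors and 0.37 for planar polarity, and -0.38 for all tested genes. In the first 4 of these lists 7 of 9, 11 of 18, 10 of 12 and 5 of 12 genes stood at their bound, as did 7601 of 19565 tested genes. The medians of these lists thus rest in part on genes near the floor in both appetitive libraries.

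**Figure D4:**
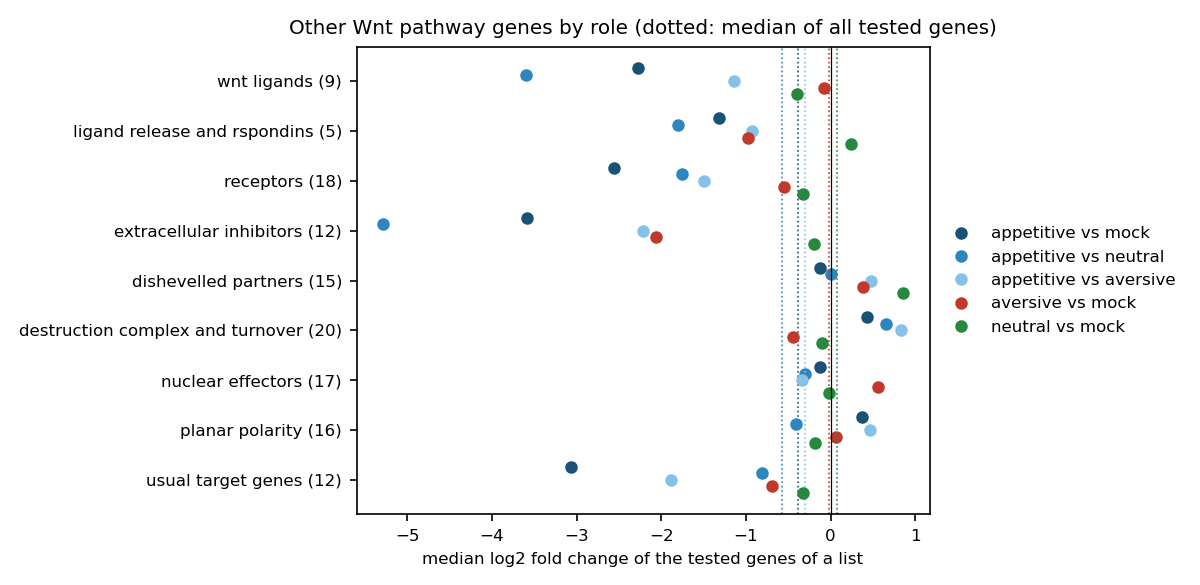
Median log2 fold change in each of 9 Wnt lists (number of tested genes in brackets), 1 colour per comparison, with the medians of all tested genes as dotted lines, genes at the floor in 1 group set at their bound and genes at the floor in both groups left out. Extracellular inhibitors stand lowest for appetitive over neutral, at -5.29 over 9 of 12 tested genes. Of these 9, 7 are at their bound, against 7162 of 18625 for all tested genes. The destruction complex and turnover list stands above 0 in all 3 appetitive comparisons.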

How the data were processed

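RNA-seq was done on sorted hippocampal material from mock, aversive, appetitive and neutral mice. Per the submitters' processing notes and the paper, STAR aligned reads, cut to 40 bp, to mm10, and featureCounts of Subread assigned them to Ensembl genes (GRCm38) without strand. The raw counts that the authors deposited were used as they are, with groups and replicate numbers from the labels.

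Total counts per library were 16968588 to 67650693. Genes kept by filterByExpr (19754) entered edgeR 4.0.16 under R 4.3.3. TMM factors were 0.48 to 1.45, and all 10 libraries in 4 groups shared 1 quasi-likelihood fit. P-values are two-sided and adjusted over all tested genes by the Benjamini-Hochberg method, and a gene was called at an adjusted p under 0.05. SEs were derived from the F statistics. DESeq2 1.42.0 (Wald test) was an alternative, beside other scalings, filters, libraries and a replicate block. Intervals of pooled counts are exact (95%). Positions and exon lengths came from GENCODE M21, matched by 53274 of 53379 identifiers. The edgeR fit was tested on simulated counts, for appetitive with mock only. Other steps were not tested in this way. Python 3.11.15 with pandas 2.3.3, scipy 1.17.1 and matplotlib 3.10.9 served for tables and figures.

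The 10 genes, the Wnt lists and the marker lists were chosen with earlier results of these data known. Named beside the 10 genes were *Gsk3a*, *Apc2* and *Amer1*, up to 2 called genes of each list and comparison with the smallest p, and the 5 genes with patterns nearest to *Dvl3*. The study's own lists of changed genes were not used as values.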

Additional observations from a re-analysis of the deposited data

Results flagged for a closer look

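In 3 genes of the wider pathway, the appetitive and the aversive group differed by edgeR's test of the difference itself, which is what marked them. The fitted log2 difference of appetitive minus aversive was -9.23 for *Ryk* (adjusted p = 0.0427), -7.33 for *Fbxw11* (adjusted p = 0.024) and -10.25 for *Bcl9l* (adjusted p = 0.0428). With only the compared groups in the fit, the adjusted p of each was 0.711 in edgeR. *Ryk* and *Bcl9l* had at most 1 count in either appetitive library, so the size of their fitted differences depends on the prior count. None of the 10 Dishevelled and core genes was marked. No group held 4 or more libraries, so single libraries were not checked as outliers.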

How the results depend on the processing

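Of 319 values of the 10 genes under settings that kept every library, 289 kept their direction and side of the threshold, 10 passed it newly and 20 changed sign. Of 500 values with 1 library left out, 462 kept both and 33 changed sign. Values that passed newly came only from fits with 1 appetitive library left, and some of the values that changed sign, of *Dvl2* and *Ctnnb1*, were among them. Of 78 and 130 values of the other called genes, 29 and 80 kept their direction but lost their call. A further 1 of the 130, for *Wnt7b*, changed sign. Causes were not tested. With edgeR's 0 calls among the 10 genes as reference, DESeq2 called 2 for appetitive with mock, 4 with neutral, 1 with aversive and 1 for aversive with mock. Without a filter, 1 (*Dvl1*) was called for appetitive with neutral, beside 2535 of all genes. With at least 10 counts in every library, 1 (*Gsk3b*) was called there, beside 160 of all genes. That filter kept only *Ctnnb1*, *Gsk3b*, *Apc* and *Lrp6* of the 10 genes. Leaving out a library gave 0 to 2 calls in each appetitive comparison, above 0 only without an appetitive library, and 0 in both others.

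Signs changed under DESeq2 for appetitive over mock in *Ctnnb1* (0.06) and *Apc* (0.22), and with its size factors in edgeR (0.07 and 0.22). With library size alone they changed in *Lrp6* over mock (-0.63), *Ctnnb1* over neutral (-0.22) and *Dvl1* over aversive (-0.05), all for appetitive. Without a filter, *Dvl1* for appetitive over aversive was -0.02 and *Gsk3b* for neutral over mock -0.05. With at least 10 counts in every library, *Lrp6* for appetitive over mock was -0.47. With only the compared groups, *Apc* for appetitive over mock was 0.04, *Dvl1* for appetitive over aversive -0.07 and *Gsk3b* for neutral over mock -0.13. Deviations from group means correlated at -0.076 to 0.201 between same-numbered libraries of different groups and at -0.159 to 0.159 between the others. In groups of 2 libraries these deviations mirror each other, so the values cannot show whether replicate numbers pair the libraries. The replicate block called 0 of the 10 genes and gave, for appetitive over mock, *Axin1* -0.23 and *Apc* 0.25, over neutral, *Dvl2* -0.47 and *Ctnnb1* -0.57, and over aversive, *Dvl1* -1.32, *Dvl2* -0.0 and *Axin1* -0.09.

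With 1 library left out, values whose sign changed ranged, for appetitive over mock, from -1.09 to 0.48 (*Lrp6*), -0.91 to 0.37 (*Apc*), -7.01 to 2.96 (*Dvl2*), -8.18 to 0.51 (*Ctnnb1*) and -8.01 to 1.66 (*Axin1*). For appetitive over neutral they ranged from -6.68 to 2.02 (*Ctnnb1*), -9.16 to 0.51 (*Axin1*), -8.47 to 1.49 (*Dvl2*) and -2.06 to 14.23 (*Wnt7b*). For appetitive over aversive they ranged from -6.41 to 1.48 (*Dvl1*), -7.07 to 2.8 (*Ctnnb1*), -8.69 to 2.71 (*Axin2*), -1.34 to 0.46 (*Apc*), -7.47 to 2.5 (*Dvl2*) and -7.76 to 4.76 (*Axin1*). For aversive over mock they ranged from -4.09 to 0.76 (*Axin1*) and -0.53 to 1.0 (*Apc*), and for neutral over mock from -0.18 to 0.23 (*Gsk3b*).

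Over all genes, edgeR called 391 for appetitive with mock, 1218 with neutral, 356 with aversive, 0 for aversive with mock and 17 for neutral with mock. In the same order DESeq2 called 4723, 5989, 3940, 1452 and 1566, no filter gave 1124, 2535, 1270, 10 and 520, at least 10 counts in every library 8, 160, 9, 0 and 51, only the compared groups 3585, 0, 0, 0 and 0, and the replicate block 0, 73, 0, 0 and 0. With 1 library left out, the counts ranged from 0 to 1800 (0 on leaving out any 1 mock or neutral library, highest without aversive replicate 1), 67 (without neutral replicate 3) to 2661 (without aversive replicate 3), 0 to 1460 (highest without appetitive replicate 2), 0 to 0 and 0 to 84 (highest without appetitive replicate 2). With DESeq2's size factors appetitive with mock had 260 calls, and with library size alone neutral with mock had 8. Scaling moved the median log2 fold change of all genes for appetitive over mock from -1.45 to -1.17 with DESeq2's size factors and to -1.93 with library size alone.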
